A study of Mus musculus with 12 samples.

Results

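CD8+ T cells sorted from mammary tumors were set against whole colon over the 350 genes that both kinds of table list, in mice labelled wild type (WT). The genes were chosen by identifier alone: 350 of the 357 Ensembl IDs in the CD8 tables also stood among the 30263 IDs of the colon tables, and all 350 were protein-coding genes. The series held 12 RNA sequencing libraries, of which the 6 labelled WT were used, and the 6 from mice labelled as lacking S1PR4, a receptor for sphingosine 1-phosphate, were not. The 3 CD8 libraries came from untreated C57BL/6 mice of the PyMT model, in which a viral oncogene drives mammary tumors, once a tumor had reached 1.5 cm, and the cells were sorted by flow cytometry. The 3 colon libraries came from snap-frozen whole colons of C57BL/6 mice at day 84 of a colitis-associated tumor model. Those mice had received azoxymethane (AOM, 10 mg/kg), a carcinogen, and drinking water with 0.5% dextran sulfate sodium (DSS), an agent that causes colitis. Whether each replicate was a separate animal is not stated, so p-values measure the spread between these samples.

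Epithelia line both the mammary gland and the colon, and hold their cells together with tight junctions, desmosomes and adhesion molecules such as Epcam. Mammary epithelium is shaped by transcription factors such as Elf5, Trps1, the progesterone receptor Pgr and the TFAP2 family, and secretes milk and antimicrobial proteins. Colonic epithelium absorbs salt and water across an apical membrane built on a dense actin scaffold, carries antibodies into the lumen through Pigr, and is renewed by WNT-dependent stem cells. CD8+ T cells express the T cell receptor complex, the CD8 chains and cytotoxic granule proteins, and do not normally express most of these epithelial genes.

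The CD8 tables could not be checked against T cell markers. Of 69 genes in 3 lists of T cell receptor, cytotoxic and checkpoint genes, 0 were in the CD8 tables, Cd8a, Cd8b1, Cd3e and S1pr4 among the absent ones. Of 35 genes in a list of mammary epithelium and milk genes, 13 were in the CD8 tables and 11 were shared with colon. How the 357 genes were selected is not stated in the sources used here. The colon libraries held colon genes at high levels, with the goblet cell mucin Muc2 at 459.5, 589.2 and 581.8 CPM (counts in a library scaled by its total) and the brush border protein Vil1 at 275.3, 314.2 and 292.3 CPM in replicates 1, 2 and 3. Cd8a stood at 5.55, 3.07 and 2.34 CPM in the same libraries.

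Counts of the 350 genes summed to 57217, 182486 and 44181 in the CD8 libraries, which are not depths, and to 325762, 264837 and 295489 in colon. The colon sums were 3.76%, 3.53% and 3.63% of 8652561, 7492925 and 8129264 counts. A gene's share is its count per 100000 counts of the 350 genes in the same library, so every difference is relative to this set. Every gene had a count in every CD8 library (lowest count 9), and 346, 340 and 342 genes had one in the colon libraries. The 2 materials also differ in tumor model and treatment. Library preparation and depth may differ too, since the colon kit and the CD8 depth are not given in the sources used here. None of these can be told apart from the tissue. In bulk libraries, fewer cells of a type and less RNA per cell cannot be told apart either.

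The composition of the set differed strongly between the materials. In edgeR's quasi-likelihood test with Benjamini-Hochberg adjustment over all 350 genes and a threshold of 0.05, 125 genes (35.7%) had a higher and 132 (37.7%) a lower share in the CD8 sort, 257 (73.4%) in all, and 93 were not called. Shares did not overlap between the groups for 130 genes (37.1%) on the higher and 142 (40.6%) on the lower side, 272 (77.7%) in all, and 254 of the 257 called genes were among these. The higher side held the larger changes, with 68 genes changed over 4-fold against 24 on the lower side. No gene absent from the CD8 libraries was in the set, which came from the CD8 tables, while some genes absent from colon libraries were. Large decreases were thus limited by the choice of genes and large increases were not, so the sizes of the sides cannot be compared. The median log2 difference over all 350 genes, CD8 sort minus colon, was -0.04. With upper-quartile scaling, which shifted that median by 0.44, the split was 151 higher and 94 lower. Across genes, ranks of counts per exon base correlated at 0.877 to 0.931 between CD8 libraries, at 0.936 to 0.985 between colon libraries and at 0.280 to 0.413 between the materials (Spearman, 350 genes, a description, since genes of one library are not independent).

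**Figure D1:**
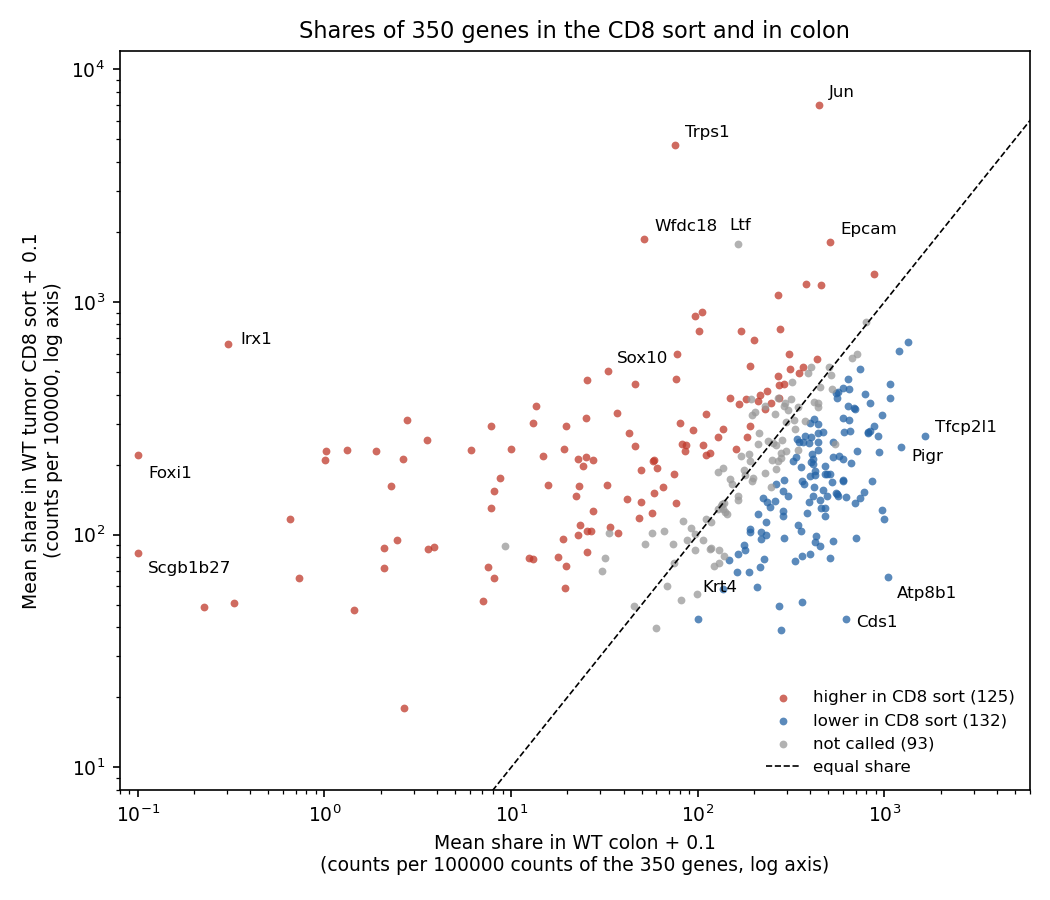
Mean share of each of the 350 genes in colon (horizontal) and in the CD8 sort (vertical), in counts per 100000 plus 0.1 on log axes, with 3 libraries per mean and the call as colour. Jun, Trps1 and Wfdc18 lie far above the line of equal share, and Atp8b1 and Cds1 far below it.

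A few genes took much of the CD8 counts. Jun, a component of the AP-1 transcription factor that is induced by growth signals and stress, had the highest mean share. Its share was 5804, 5714 and 9531 per 100000 in CD8 replicates 1, 2 and 3 and 378, 506 and 449 in the colon replicates. No CD8 library came near a colon library. Jun (ENSMUSG00000052684, GRCm38 chromosome 4, 95049034 to 95052222, minus strand) averaged 7016 ± 2178 in the CD8 sort and 444.6 ± 64.2 in colon (SD, n = 3 each), a log2 difference of 3.98 ± 0.37 (SE, edgeR adjusted p = 1.2e-05). Ier3, an immediate early gene that responds to stress, was the other shared member of a list of 33 AP-1 and immediate early genes. Its share was 498, 458 and 448 in the CD8 sort and 101.6, 74.0 and 54.5 in colon, a log2 difference of 2.61 ± 0.24 (SE).

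Trps1, a zinc finger repressor abundant in mammary epithelium, came second in the CD8 sort. Its share was 5631, 4346 and 4196 there and 122.8, 38.5 and 64.0 in colon. Trps1 (ENSMUSG00000038679, chromosome 15, 50654752 to 50890463, minus strand) averaged 4724 ± 789 against 75.1 ± 43.2 (SD, n = 3 each), a log2 difference of 5.97 ± 0.49 (SE, edgeR adjusted p = 6.5e-06). Per exon base, which allows levels of genes to be compared, Trps1 stood at the 97.9th percentile of the set in the CD8 sort and at the 17.9th in colon. Jun stood at the 99.9th and 94.0th percentiles and was thus among the leading genes of both materials.

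The other 8 of the 10 largest mean shares in the CD8 sort belonged to Wfdc18, Epcam, Ltf, Ehf, Kit, Trib1, Fgfr1 and Phlda1. All except Ltf were called higher, but Ehf lost its call by rank and without any 1 colon library (edgeR adjusted p = 0.122, 0.0632 and 0.112 without replicates 1, 2 and 3). Phlda1, an intracellular regulator with a pleckstrin-homology-like domain, had shares of 781, 846 and 1098 in the CD8 sort and 121.9, 106.9 and 86.6 in colon (log2 difference 3.11 ± 0.20, SE), with 33.0% of its exon bases overlapped by the gene model Gm28592. Trib1, a pseudokinase that steers protein degradation, was nearer in the 2 materials, at 1325, 738 and 1485 against 527, 413 and 425 (1.37 ± 0.26). The 10 genes together took 22.8% of the set's counts in the CD8 sort.

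Transcription factors of epithelia and the mammary gland had some of the largest differences in the data. Of 39 such genes, a group drawn up after the shares had been seen and therefore not tested, 24 were higher, 10 lower and 5 not called, with a median log2 difference of 2.19 against -0.04 over all 350 genes. The higher members accounted for 61.5% of the group, against 35.7% of the set, and the median does not depend on Foxi1, whose difference is only bounded below.

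Irx1, an Iroquois homeobox factor, was nearly restricted to the CD8 sort. Its share was 596, 698 and 688 there, and colon held 2 counts in all, both in replicate 1. Pooled over libraries, the share in the CD8 sort was 2993 times that in colon, with an exact 95% counting interval from 827.5 to 24730. Irx1 (ENSMUSG00000060969, chromosome 13, 71957921 to 71963723, minus strand) had the smallest p of the set (edgeR adjusted p = 6.8e-08). Its relative Irx3 had shares of 171, 252 and 208 against 3.99, 2.27 and 1.35, a log2 difference of 6.33 ± 0.49 (SE).

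Foxi1, a forkhead factor known from ionocytes, had shares of 147, 340 and 170 in the CD8 sort and was at 0 in every colon library. With a floor of 3 counts in each colon library it was at least 214-fold higher, a bound that was 154.7-fold without CD8 replicate 2. Sox10, a factor of neural crest, glia and also mammary epithelium, had shares of 442, 546 and 525 against 45.7, 20.4 and 33.2 (log2 difference 3.92 ± 0.28, SE). Sox4, a related factor active in many progenitor cells, had shares of 748, 629 and 677 against 195, 215 and 193 (1.77 ± 0.14), and 54.6% of its exon bases overlap another gene. Neither Sox gene's groups overlapped.

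Several mammary factors had their colon counts mostly in 1 library. Elf5, the ETS factor of milk-secreting alveolar cells, had shares of 327, 316 and 235 in the CD8 sort. In colon it had 75 counts in replicate 1 and 0 in the others, and it was called (log2 difference 5.20 ± 1.66, SE, edgeR adjusted p = 0.037). Pgr had shares of 273, 189 and 233 against 14.7, 1.51 and 1.69 (5.23 ± 0.88, and 7.10 without colon replicate 1). Tfap2a had shares of 224, 318 and 224 against 9.21, 0.755 and 0.338 (6.15 ± 0.99, and 8.72 without that library). Tfap2c, its paralog, had shares of 185, 254 and 256 against 3.68, 0 and 0, and Grhl1, a grainyhead factor of epithelial barriers, 288, 284 and 306 against 45.4, 9.06 and 4.40. Without colon replicate 1, Grhl1 moved from 3.88 ± 0.80 to 5.44. All 5 genes were called with and without that library. Elf5 lost its call with a replicate block and without CD8 replicate 1, CD8 replicate 2 or colon replicate 3 (edgeR adjusted p = 0.0763, 0.104, 0.0503 and 0.0559).

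Other factors ran the opposite way. Tfcp2l1, a CP2 family factor of kidney and gut epithelia, had the largest mean share in colon, at 1366, 1786 and 1786 against 243, 308 and 242 in the CD8 sort. Tfcp2l1 (ENSMUSG00000026380, chromosome 1, 118627945 to 118685168, plus strand) differed by -2.63 ± 0.21 (SE, edgeR adjusted p = 6.3e-06). Spdef, which drives goblet cell maturation, had shares of 24.5, 35.1 and 56.6 against 173, 383 and 285 (-2.88 ± 0.40). Klf5, a crypt cell factor, differed by -1.65 ± 0.16, Sox13 by -2.15 ± 0.21 and the Hippo pathway coactivator Yap1 by -0.91 ± 0.18 (SE, log2). The paralogs Grhl1 and Grhl2 were not alike: Grhl2 had shares of 304, 370 and 249 in the CD8 sort and 322, 393 and 409 in colon and was not called (-0.27 ± 0.19).

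**Figure D2:**
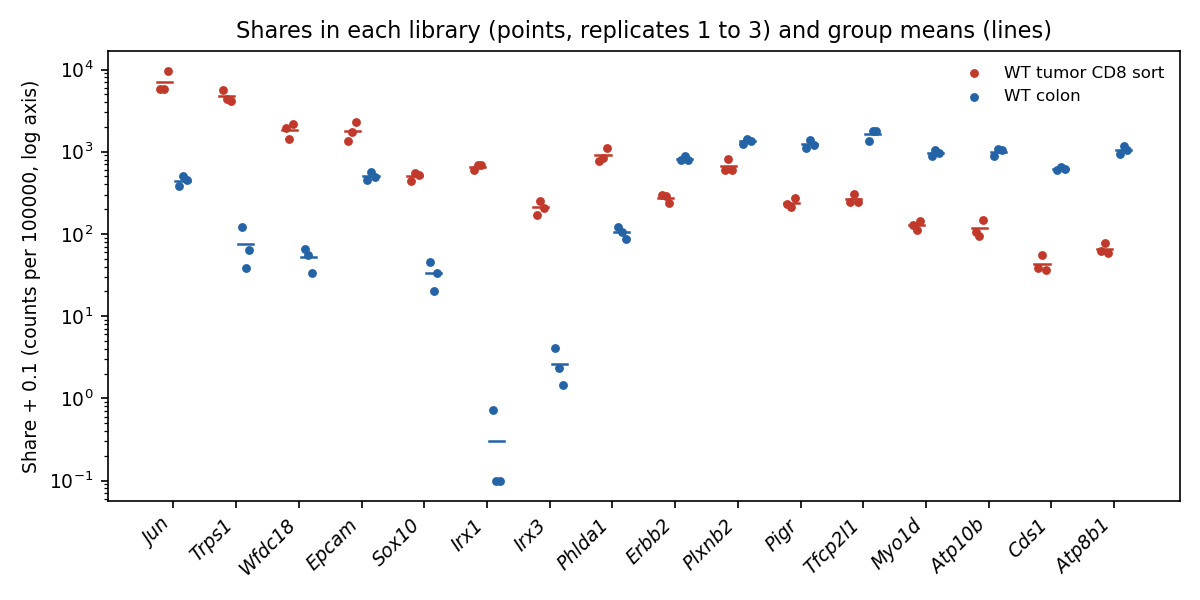
Share of 16 genes in each library (points, counts per 100000 plus 0.1, log axis) with the mean of 3 libraries (lines), CD8 sort in red and colon in blue. No gene shown has overlapping groups, and Irx1 is at 0 in colon replicates 2 and 3.

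Secreted, milk and antimicrobial proteins, grouped with some membrane proteins of secretory epithelia, also included many higher genes. Of 15, again grouped after the shares were seen, 10 were higher, against 35.7% of all 350 genes, 2 lower and 3 not called, and the median log2 difference was 2.89. Among the 11 with a mean of at least 50 counts the median was 1.63, below the 1.98 of transcription factors under the same filter. Wfdc18, a small secreted protein of mammary epithelium, had shares of 1956, 1419 and 2191 against 66.3, 55.5 and 33.2 (5.16 ± 0.33, SE, edgeR adjusted p = 1.9e-06). Plet1, an epithelial surface protein, had shares of 888, 776 and 584 against 91.2, 163 and 49.7 (2.89 ± 0.42). Muc15, a membrane mucin of milk fat globules, had shares of 322, 334 and 281 against 7.98, 0 and 0 (6.77 ± 1.22). Scgb1b27, a secretoglobin of a multigene family whose members could share reads, had shares of 45.4, 47.1 and 158 in the CD8 sort and was at 0 in every colon library. It was at least 81.8-fold higher in the CD8 sort, a bound that was 45.2-fold without CD8 replicate 3.

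Lactoferrin (Ltf), an iron-binding protein of milk and neutrophil granules, had a call set by 1 library. Its share was 2125, 1123 and 2066 in the CD8 sort and 483.5, 4.53 and 3.72 in colon. The groups did not overlap, yet the spread in colon left it uncalled (3.43 ± 2.07, SE, edgeR adjusted p = 0.20). Without colon replicate 1 the log2 difference was 8.72 (edgeR adjusted p = 6.05e-08). Btn1a1, the butyrophilin of milk fat globules, had shares of 110, 128 and 67.9 against 2.46, 45.3 and 51.8, was not called, and was called at 1.09 without the same library (edgeR adjusted p = 0.0144).

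The 2 members of this group on the lower side, Pigr and Slc34a2, are membrane proteins. Pigr, the receptor that carries IgA across epithelia, had shares of 229, 215 and 272 in the CD8 sort and 1104, 1374 and 1216 in colon (-2.37 ± 0.18, SE). Slc34a2, a phosphate transporter, had shares of 41.9, 53.2 and 58.9 against 228, 397 and 459 (-2.81 ± 0.30). The list of mammary epithelium and milk genes, which overlaps these groups, had 7 of 11 shared members higher, against 35.7% of the set (Epcam, Cldn3, Cldn4, Elf5, Muc1, Pgr and Plet1), 2 lower (Erbb2 and Cldn7) and 2 not called (Btn1a1 and Areg), with a median of 1.42, which was 2.70 over the 5 members left without the genes most densely covered in colon. The summed share of the list was 4693 to 5038 in the CD8 sort and 2480 to 2969 in colon.

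Of 25 junction, desmosome and polarity proteins, 14 were lower in the CD8 sort, against 37.7% of all 350 genes, 6 higher and 5 not called. Their median log2 difference was -0.55, and -0.12 with upper-quartile scaling. Epcam was the main exception. Its share was 1360, 1746 and 2297 in the CD8 sort and 452, 572 and 497 in colon (1.83 ± 0.25, SE, edgeR adjusted p = 0.00012), and per exon base it stood at the 99.3rd percentile of the set in the CD8 sort and the 99.0th in colon. The claudins, which seal tight junctions, differed among themselves. Cldn3 and Cldn4 were higher by 0.50 ± 0.15 and 0.51 ± 0.18, while Cldn7 differed by -1.10 ± 0.18 (SE, log2). Cldn4 lost its call by rank and without CD8 replicate 1, CD8 replicate 2 or colon replicate 3 (edgeR adjusted p = 0.121, 0.0618 and 0.145 without these libraries). By rank per exon base Cldn3 stood at -1.33 percentile points, CD8 sort minus colon. In colon replicates 1, 2 and 3, Cldn3 had 1014, 1039 and 1027 counts over 1259 exon bases, and Epcam 1474, 1516 and 1470 over 2195. Both were among the genes with the most counts per exon base in colon, where no gene of the set passed 0.904. Whether their colon shares were limited by this was not tested. Occludin (Ocln) had shares of 145, 149 and 95.1 against 430, 509 and 438 (-1.80 ± 0.20), and the desmosomal cadherin Dsg2 348, 543 and 439 against 1011, 1184 and 1030 (-1.27 ± 0.20). The protocadherin Pcdh1 differed by -2.33 ± 0.15, the nectin Nectin2 by -1.97 ± 0.18, the scaffold Magi1 by -1.67 ± 0.16 and the apical constriction protein Shroom3 by -0.96 ± 0.20 (SE, log2). Ctnnd1 (p120 catenin) was higher by 1.16 ± 0.28, with 61.2% of its exon bases overlapping another gene.

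Of 19 genes grouped as actin and myosin proteins, 10 were lower (37.7% in the set), 5 higher (35.7% in the set) and 4 not called. Their median was -0.43, but 0.028 with upper-quartile scaling. Myo1d, a class I myosin of the brush border, had shares of 128, 111 and 143 against 888, 1054 and 958 (-2.94 ± 0.17, SE, edgeR adjusted p = 1.3e-06). Myo5b, which moves apical recycling vesicles, had shares of 180, 224 and 276 against 820, 1020 and 958 (-2.04 ± 0.19), and the actin cross-linker Lima1 320, 430 and 229 against 911, 1032 and 970 (-1.56 ± 0.23). On the other side, Stac2 had shares of 301, 452 and 315 against 18.1, 11.3 and 11.2 (4.71 ± 0.32), the largest increase of the group. Stac2 is an adaptor and not itself an actin or myosin protein.

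Of 17 channels and transporters, 8 were higher (35.7% in the set), 8 lower (37.7% in the set) and 1 not called. Their median of -0.17 depended on the setting. It was -0.96 among the 15 with a mean of at least 50 counts and -13.1 percentile points by rank, 0.26 with upper-quartile scaling, 0.38 without the genes of highest colon density, 0.059 without CD8 replicate 3 and 0.043 without colon replicate 1. The lower members held the largest decrease of the whole set. Atp8b1, a flippase that moves phospholipids across the apical membrane, had shares of 61.2, 77.3 and 58.9 in the CD8 sort and 930, 1158 and 1052 in colon. Atp8b1 (ENSMUSG00000039529, chromosome 18, 64528967 to 64661267, minus strand) averaged 65.8 ± 10.0 against 1047 ± 114 (SD, n = 3 each), a log2 difference of -3.96 ± 0.19 (SE, edgeR adjusted p = 4.5e-07). The related Atp10b differed by -3.12 ± 0.21, the magnesium channel Trpm6 by -2.86 ± 0.28 and the sodium bicarbonate transporter Slc4a4 by -2.68 ± 0.18. Among the higher members, the proton pump subunit Atp6v1c2 had shares of 73.4, 93.2 and 92.8 against 7.98, 1.51 and 1.02 (4.57 ± 0.74), and the force-gated channel Piezo2 differed by 1.57 ± 0.27 (SE, log2).

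Of 19 receptor tyrosine kinases, their ligands and adaptors, 5 were higher (35.7% in the set), 7 lower (37.7% in the set) and 7 not called. Their median was 0.13, which was negative by rank, 0.56 with upper-quartile scaling and 0.50 without the genes of highest colon density. Kit, the stem cell factor receptor, had shares of 890, 1488 and 1188 against 260, 491 and 388 (1.65 ± 0.27, SE). Fgfr1, a fibroblast growth factor receptor, had shares of 1166, 1296 and 738 against 323, 200 and 288 (1.98 ± 0.26). Erbb2, the epidermal growth factor receptor relative that is a mammary oncogene, went the other way, at 299, 293 and 235 against 785, 885 and 783 (-1.56 ± 0.16, edgeR adjusted p = 1.9e-05), and its relative Egfr differed by -0.48 ± 0.16. The call of Egfr was lost with DESeq2 size factors, with upper-quartile scaling and without CD8 replicate 1, colon replicate 2 or colon replicate 3 (edgeR adjusted p = 0.0621, 0.741, 0.0697, 0.051 and 0.0953). The ligands of that receptor family, Areg and Nrg1 were not called, at -0.01 ± 0.38 and 0.13 ± 0.40 (SE, log2).

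Matrix, guidance and WNT genes were called in both directions, as was the set (35.7% of all 350 genes higher and 37.7% lower). Of 15 integrins, laminins and collagens, 6 were higher, 6 lower and 3 not called. Their median of -0.04 was positive with each other scaling, in limma-voom and without colon replicate 1. The basement membrane collagens Col4a5 and Col4a6 were higher, at 1.38 ± 0.27 and 1.58 ± 0.38, and Col6a3, made by fibroblasts, had shares of 152, 140 and 158 against 672, 335 and 648 (-1.88 ± 0.26, SE). Of 9 plexins, semaphorin and guidance receptors, 3 were higher, 2 lower and 4 not called, with a median of 0.08 that was negative by rank and without CD8 replicate 1 or colon replicate 2, and 0.51 with upper-quartile scaling and 0.49 without colon replicate 1. Plxnb2, a semaphorin receptor, had the second largest mean share in colon, at 1248, 1421 and 1332 against 598, 822 and 598 in the CD8 sort (-0.98 ± 0.20), and the netrin receptor family member Neo1 differed by -2.35 ± 0.15. Of 8 WNT receptors and effectors, 2 were higher, 3 lower and 3 not called, with a median of -0.51 (-0.078 with upper-quartile scaling). Lgr4, the R-spondin receptor, had shares of 140, 95.3 and 195 against 693, 778 and 749 (-2.41 ± 0.24), and Fzd3, a Frizzled receptor, was higher at 2.24 ± 0.41 but at -4.95 percentile points by rank.

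**Figure D3:**
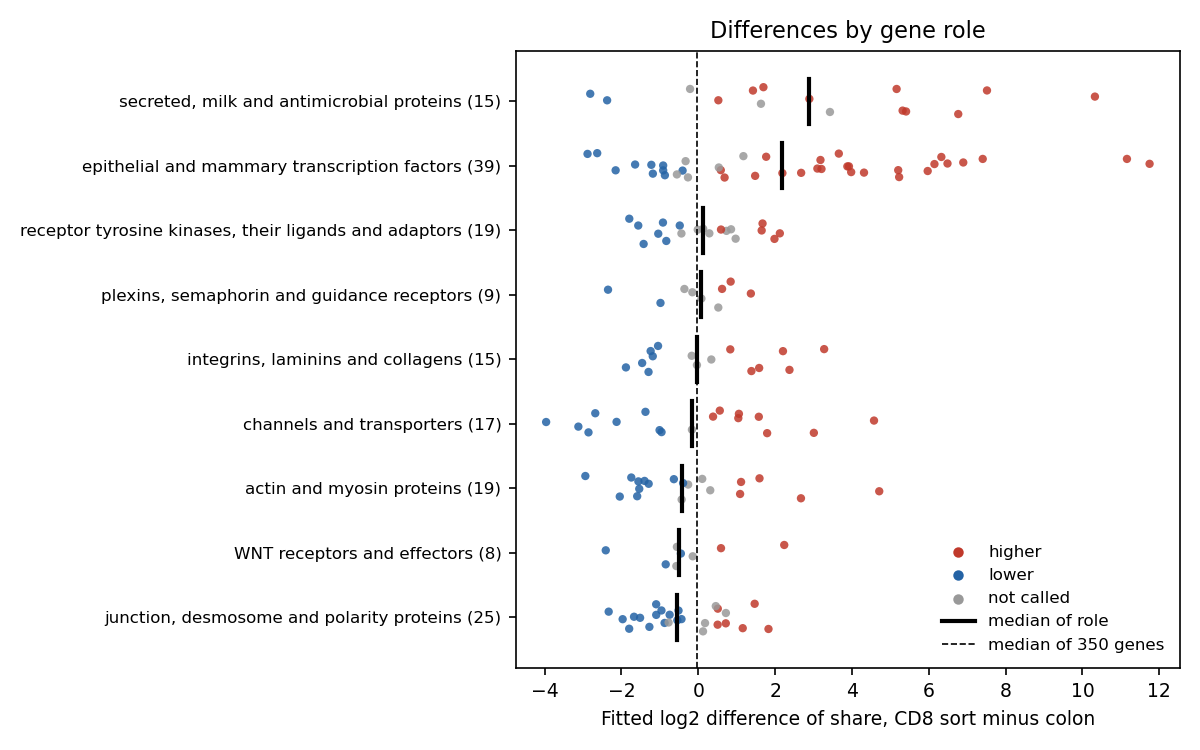
Fitted log2 difference of share (CD8 sort minus colon) for each gene of 9 role groups, coloured by call, with the group medians as bars and the median of all 350 genes as a dashed line. Secreted proteins and transcription factors have medians of 2.89 and 2.19, and the other medians lie between -0.55 and 0.13.

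The remaining 186 genes, in no role group, had 57 higher (35.7% in the set), 70 lower (37.7% in the set) and 59 not called, with a median of -0.11. Among those with the smallest p, Rasgrf1, which activates Ras, had shares of 264, 244 and 118 against 0.614, 0.755 and 1.35 (7.76 ± 0.56, SE). Fam20a, a secretory pathway pseudokinase, had shares of 432, 443 and 507 against 35.3, 13.6 and 27.1 (4.17 ± 0.32). On the lower side, Cds1, which makes a precursor of phosphoinositides, had shares of 38.5, 55.3 and 36.2 against 592, 643 and 619 (-3.76 ± 0.20, edgeR adjusted p = 1e-06). The lipid kinase Pik3c2b differed by -1.79 ± 0.14 and the tetraspanin Tspan15 by -2.33 ± 0.17 (SE, log2).

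Markers of other cell types were few in the set. Of 33 cell type and function lists, 22 had no shared gene. The 3 colonocyte genes in the set were Epcam, which was higher, and Tspan8 and Ceacam1, which were lower at -1.56 ± 0.24 and -0.60 ± 0.17 (SE, log2). Ceacam1 lost its call by rank and with upper-quartile scaling. The monocyte receptor Cd14 was higher at 0.52 ± 0.18, a call lost with a replicate block and without CD8 replicate 1, CD8 replicate 2 or colon replicate 3 (edgeR adjusted p = 0.0579, 0.102, 0.0762 and 0.109). The endothelial receptor Kdr was lower at -1.42 ± 0.31, and the smooth muscle gene Cald1 was not called at -0.26 ± 0.25. At 1 shared gene each for these lists, the part of such cells in any difference was not tested.

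Some genes kept nearly the same share in both materials. By the smallest absolute log2 difference among genes with a mean of at least 50 counts in each material, these were Dusp8, Tgfb2, Adcy9, Areg and Arhgap29. Adcy9, an adenylyl cyclase, was the most even of them, with shares of 135, 138 and 127 in the CD8 sort and 137, 119 and 142 in colon (0.01 ± 0.27, SE). Areg ranged more widely within the CD8 sort, at 126, 71.8 and 188 against 137, 137 and 109. With these standard errors a difference of this size was not detectable, which does not show equal levels.

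Colon replicate 1 stood apart from the other colon libraries. In that library 18 of the 350 genes had a share over 3 times that of both others, with at least 10 counts, and 1 gene was under both by the same ratio. Of the 18, 13 were called higher in the CD8 sort, against 35.7% of all 350 genes, and 5 were not called. The same colon counts enter both the choice of these genes and their calls, so this share is a description only. Krt4, a keratin of squamous epithelium, had shares of 387, 1.89 and 1.02 in colon and 80.4, 85.5 and 61.1 in the CD8 sort. Its log2 difference was -0.77 ± 2.09 (SE) with all libraries, and without colon replicate 1 it was 5.67 (edgeR adjusted p = 2.64e-06). Crabp2, a retinoic acid carrier, and Sprr1a, a cornified envelope protein, were also called higher without that library, at 8.46 and 1.33 (edgeR adjusted p = 7.78e-07 and 0.00286).

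The same library held other squamous keratins that the CD8 tables do not list. Krt5 stood at 121.8 CPM in colon replicate 1 and at 0.134 and 0.123 CPM in the others, and Krt13 at 135.7 against 4.80 and 2.58 CPM. A list of 18 skeletal muscle and squamous genes summed to 973 CPM there and to 91.7 and 99.4 CPM in replicates 2 and 3. Colon replicate 1 also held Xist at 533 CPM and the Y-linked Ddx3y at 0.116 CPM, while the other 2 held Xist at 1.07 and 6.64 and Ddx3y at 63.1 and 67.5 CPM. The part of squamous tissue or of sex in the differences was not tested.

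**Figure D4:**
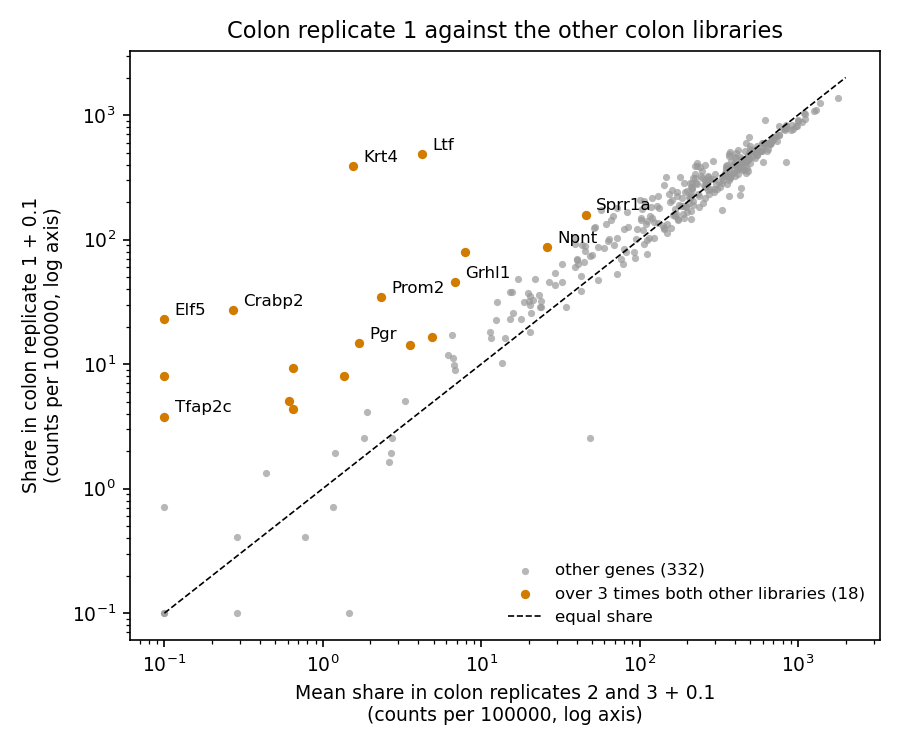
Share of each of the 350 genes in colon replicate 1 (vertical) against the mean of colon replicates 2 and 3 (horizontal), in counts per 100000 plus 0.1 on log axes. The 18 marked genes, among them Krt4 and Ltf, lie over 3 times above both other libraries.

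The 3 CD8 libraries resembled each other closely. The ratio of the highest to the lowest share had a median of 1.43, and 302 genes (86.3%) were under 2. Of 13 genes over 3, 12 were lowest in replicate 2 and 11 highest in replicate 3. Camk2b, a calcium-dependent kinase, had shares of 73.4, 4.93 and 79.2, and the membrane mucin Muc4 145, 61.4 and 527. Replicate 2 also had the largest sum of counts of the 3.

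The called genes differed in how densely colon covered them. Genes lower in the CD8 sort had a median of 0.218 counts per annotated exon base in colon, those higher 0.0180 and those not called 0.0788. The highest value in any colon library was between 0.893 and 0.904 per exon base, while the CD8 libraries reached 1.04, 3.27 and 1.32. For 51 genes over 0.3 in colon, 42 were lower and 7 higher, and among the other 299 genes 90 were lower and 118 higher. The same colon counts enter both the density and the call. A lean of dense genes to the lower side is thus partly built in, and these values are a description only. Refitted without the 51 genes, 101 were lower and 111 higher. The 35 genes of highest rank in each material had 6 in common (17.1% of each), which were Cldn3, Cldn4, Ehf, Epcam, Gas6 and Jun. Within whole colon, the 348 genes of the set with a colon count lay high. Their median percentile was 77.3, 71.7 and 73.8 among 28063 ranked genes in replicates 1, 2 and 3. Foxi1 and Scgb1b27, without a colon count, were not ranked.

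**Figure D5:**
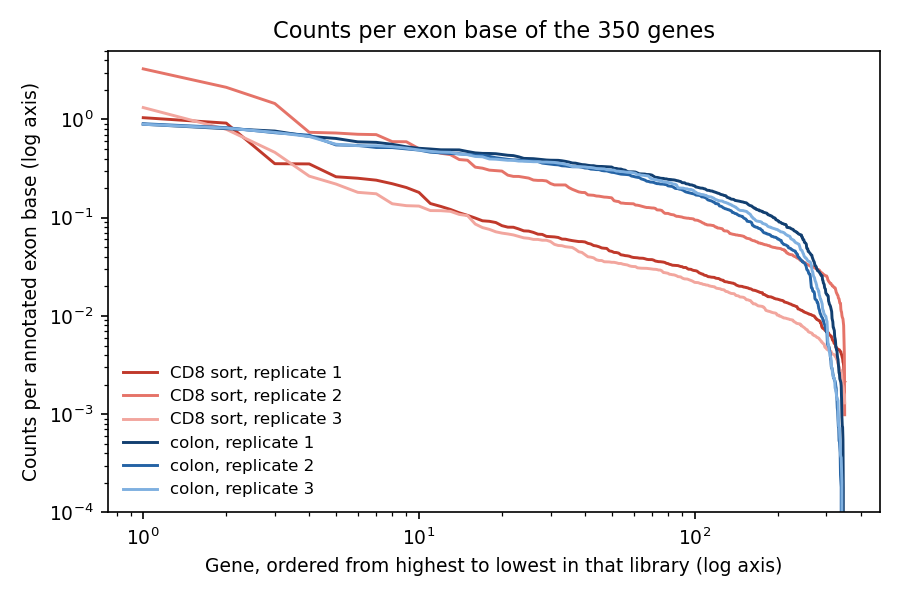
Counts per annotated exon base of the 350 genes in each library, ordered from the highest to the lowest gene, on log axes, where genes at 0 are not drawn. The colon curves start together at about 0.9, and CD8 replicate 2 starts highest, at 3.27.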

How the data were processed

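Read counts per Ensembl gene were deposited as whole numbers without normalisation, per the file headers. STAR, TopHat2, RSEM, HTSeq and DESeq2 and the builds mm10 and GRCm38 are named in the submitters' processing notes, with no versions or roles. CD8 libraries were made with a SMARTer stranded total RNA kit, per the labels' protocols. Those of colon were prepared by a core facility, with the kit not given in the sources used here. Whether strand was used in counting is not given either, so overlapping genes cannot be told apart.

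IDs were matched between tables and to GENCODE vM21 for positions and exon bases (350 of 350 matched). The library size was the summed count of the 350 genes. edgeR 4.0.16 in R 4.3.3 was used (filterByExpr, which kept all 350 genes, then a robust quasi-likelihood F test with Benjamini-Hochberg adjustment, threshold 0.05). The biological coefficient of variation was 0.302. No pair of replicates was a repeat of 1 library: chi-square per degree of freedom was 8.32 or more in every pair. Intervals and floors (3 counts) cover counting error only, since reads carry no molecular identifiers.

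Members and lists were chosen with earlier results of these data known. The rule for named genes takes the 10 largest mean shares of each material, 10 genes per direction (smallest p, no overlap), 3 members of each list, markers of T cells and S1pr4, and the 5 smallest differences. Unnamed models are left out. The role groups, and every other gene named, were chosen after values were seen. Of these, 1 group and 1 gene are not reported here. The alternatives were 3 scalings, 2 filters, DESeq2 1.42.0, limma 3.58.1 (voom and ranks), a fit without 51 densely covered genes, a replicate block and each library left out.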

Additional observations from a re-analysis of the deposited data

How the results depend on the processing

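All 16 alternatives kept both counts of called genes within 1.5 times the reported ones. The fit with no filter could not differ from the main one, since all 350 genes had passed the filter. Its values are counted as kept below. Counts of higher and lower genes were 129 and 126 with TMM, 131 and 121 with DESeq2 size factors, 151 and 94 with upper-quartile scaling (61.6% of calls higher, against 48.6%), 135 and 140 in DESeq2, 140 and 136 in limma-voom, and 109 and 140 by rank, where 3 calls turned. Leaving out 1 library gave 112 to 137 higher and 108 to 131 lower. For 113 genes chosen for this check, 1682 of 1775 values were kept, 52 lost the call, 36 gained it and 5 reversed. Kept values stayed on the same side of the threshold. A change of direction counted as reversed only where the main fit or the alternative called the gene. Uncalled genes could change direction and still count as kept, as Adcy9 did (-0.062 to 0.061 over the libraries left out). Some genes given above, such as Sox13, Magi1, Ctnnd1, Piezo2, Atp6v1c2 and Nrg1, were not among the 113. The reversed values were Krt4 in limma-voom (4.77) and without colon replicate 1 (5.67; -1.35 to 5.67 over the libraries left out), and Cldn3 (-1.33), Fzd3 (-4.95) and Robo1 (-16.1) by rank, in percentile points. Group medians counted as reversed for actin and myosin proteins (0.028) with upper-quartile scaling, and by rank for receptor tyrosine kinases (-5.33) and guidance receptors (-5.52). Outside the rank fit, a median counted as reversed only where its main value exceeded its spread between libraries. Smaller medians also changed sign, for channels and transporters, for integrins, laminins and collagens and for guidance receptors, in the settings given with those groups. The cause was not tested. The log2 value of a gene with few or 0 colon counts depends on the library left out.

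With the replicate number as a block, 125 genes were higher and 127 lower. Same-numbered libraries of the 2 materials did not deviate together (correlations of -0.001, 0.059 and -0.037) and came from different models, so the numbers do not pair them.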

Other observations

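The 7 CD8-table genes outside the colon tables have no colon value here, and 3 of them encode milk or secretory proteins. Lalba, the milk protein alpha-lactalbumin, had 109, 296 and 212 counts in CD8 replicates 1, 2 and 3. Csn1s1, a milk casein, had 24, 42 and 27, and the secretoglobin Scgb2b27, of a multigene family, had 163, 458 and 122. The histone gene Hist1h2ai had 72, 73 and 71 counts, 2310057J18Rik 41, 29 and 77, Gcom1 38, 101 and 38, and Gm37988 57, 19 and 83.

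RefSeq promoter windows were searched for 3 motifs (of AP-1, TFAP2 and GRHL factors), but only 249 of the 350 genes matched a window, under the 80% such a check needs. That check is void, and its shares are not given.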
